A study of Mus musculus with 18 samples.

Results

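The class 3 semaphorins and their neuropilin receptors were followed across 6 treatment groups of brown adipocytes. The set holds 9 genes of the 20295 in the count table, taken by symbol, namely Sema3a, Sema3b, Sema3c, Sema3d, Sema3e, Sema3f, Sema3g, Nrp1 and Nrp2. It was chosen by the counts of Sema3g, which were lower with lipase inhibitors alone than with vehicle, so the comparison of Lipase Inh. + Vehicle with Vehicle is given here as a description, with no test. All 9 genes passed the filter on low counts that left 12156 genes for testing.

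The cells were BAT-LgT, a line of mouse brown preadipocytes made immortal with the SV40 large T antigen and differentiated in culture, so all groups are 1 cell line of wild-type genotype. On day 7 the cells were left without inhibitor or were given inhibitors of the lipases ATGL (Atglistatin) and HSL (CAY10499) for 1 h, and vehicle (DMSO), isoproterenol or SR-3420 was then present for 3 h. Isoproterenol (ISO, 100 nM) is an agonist of all β-adrenergic receptors, and SR-3420 (10 µM per the labels, while the text of the study names another dose) is a ligand of ABHD5, the co-activator of ATGL. Groups without inhibitors are Vehicle, ISO and SR-3420, each has a counterpart named Lipase Inh. + the treatment, and all have 3 RNA-seq libraries. They ask which part of the transcriptional response depends on lipolysis.

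Class 3 semaphorins are secreted proteins that steer axons, migrating cells and growing vessels. Most of them bind a neuropilin on the target cell, and the neuropilin, which has only a short tail inside the cell, passes the signal on through a plexin. Neuropilins also bind members of the VEGF family, so the same receptors serve guidance and vessel growth. In brown adipose tissue, sympathetic nerves supply the catecholamine signal that ISO stands in for, and the tissue is densely supplied with vessels.

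Promoter sequence is shown for the genes the results turn on, the ligand Sema3g and both receptors, whose levels moved in different ways across the same 18 libraries. Each runs 5′ to 3′ on the strand of the gene in build mm9, the build of the counts, and ends just before the transcription start of the count table or, where an annotated exon begins earlier, before that exon. Capitals mark matches on either strand to a GC box (GGGCGG) or a TATA box core (TATAA).
Sema3g promoter, chr14:32030809-32031045, plus strand: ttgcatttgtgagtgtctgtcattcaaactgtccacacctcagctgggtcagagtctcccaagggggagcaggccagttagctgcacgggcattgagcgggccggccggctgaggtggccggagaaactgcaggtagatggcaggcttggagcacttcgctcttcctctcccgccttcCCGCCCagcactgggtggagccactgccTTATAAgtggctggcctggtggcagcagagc
Nrp1 promoter, chr8:130882723-130882972, plus strand: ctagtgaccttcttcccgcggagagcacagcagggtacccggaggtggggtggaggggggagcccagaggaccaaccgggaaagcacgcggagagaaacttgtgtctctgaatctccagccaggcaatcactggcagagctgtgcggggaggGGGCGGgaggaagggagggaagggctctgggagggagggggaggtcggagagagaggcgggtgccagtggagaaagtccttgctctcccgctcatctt
Nrp2 promoter, chr1:62749641-62749858, plus strand: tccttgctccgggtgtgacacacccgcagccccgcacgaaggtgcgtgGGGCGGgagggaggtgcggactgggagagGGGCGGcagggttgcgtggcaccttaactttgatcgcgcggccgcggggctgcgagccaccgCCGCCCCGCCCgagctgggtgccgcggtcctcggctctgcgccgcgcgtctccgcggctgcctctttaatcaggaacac
Counted from the start of the gene in the count table, the Sema3g window holds TATAA from -43 to -39, the overlapping TATAA of the other strand from -44 to -40, and a GC box of the other strand from -72 to -67. The Nrp1 window holds 1 GC box, from -98 to -93. The Nrp2 window holds GC boxes starting at -202, -173, -111 and -106, the last pair overlapping, and 1 more starts at -27 in the exon bases that are not printed. In the 250 bases before the start, TATAA occurs in 20.4% of all 20295 promoters and in 1 of the 9 members, and GGGCGG in 45.6% and in 6 members. These 6 include Sema3c, whose 250 bases before the start all lie in annotated exon. The full cAMP response element TGACGTCA was in 0 of the 9 member windows and in 2.14% of all promoters, and its core TGACG was in 1 member, Sema3d, and in 21.2%. The direct repeat of AGGTCA bound by PPAR and RXR, with any 1 base between the copies, was in 0 members and 0.0542% of all promoters. The C/EBP-ATF letters TGATGCAAT (0.128%) and the E-box CACGTG (6.92%) were in 0 members too. A match or its absence describes these letters in these windows only.

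The libraries held 10310447 to 21205032 counts, apart from Lipase Inh. + SR-3420 replicate 2, which held 4263755 counts and had 18.3% of them in Lars2, against 0.0397 to 0.121% in the other 17. Fitted differences that use this library are also given in the text without it. Levels are CPM, the counts scaled to library totals adjusted by TMM factors, fold changes are between group means on the log2 scale with their standard error (SE), and p-values are from edgeR's quasi-likelihood test, adjusted over the 12156 genes. A gene is said to have risen or fallen where the adjusted p was at most 0.05. All 7 adipocyte markers were measured, with a summed level of 8924 to 14233 CPM. The 7 endothelial markers summed to 0.0900 to 0.876 CPM with Tie1 listed at 0 in every library, and the 5 macrophage markers in the table summed to 5.41 to 15.4 CPM with Ptprc listed at 0. These are bulk samples, in which fewer cells of a type and less RNA per cell cannot be told apart.

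Per kilobase of counted length, Nrp1 was the most abundant member, with a mean over all libraries of 87.0 CPM per kb, at or above 93.8% of the genes tested. Nrp2 (24.4 CPM per kb) and Sema3g (21.6 CPM per kb) followed, at or above 73.0% and 69.6% of them. The other 6 semaphorins were low, from 0.439 CPM per kb for Sema3d to 2.78 CPM per kb for Sema3c. Sema3g thus had the highest mean level of the 7 class 3 ligands, and the low ligands had as few as 13 counts in a library. Here n is 3 libraries in every group.

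Sema3g is a secreted ligand that signals through neuropilin-2 and lies on chromosome 14 (32031059 to 32042697 in mm9, plus strand). Its level was higher with ISO and with SR-3420 than with Vehicle. With inhibitors its level under SR-3420 was lower, while that under ISO stayed within its spread. The 3 Vehicle libraries held 38.4, 37.2 and 29.4 CPM. With ISO the values were 147, 151 and 127 CPM, and with SR-3420 they were 105, 127 and 112 CPM. Every stimulated library lay above every Vehicle library, and the lowest ISO library lay just above the highest SR-3420 library. After inhibitors, vehicle-treated cells held 13.2, 18.4 and 12.9 CPM, ISO-treated cells 146, 139 and 161 CPM, and SR-3420-treated cells 26.1, 15.5 and 25.4 CPM. The ISO libraries with and without inhibitors overlapped, whereas all SR-3420 libraries with inhibitors lay below the lowest Vehicle library.

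The order of the Sema3g group means was Lipase Inh. + ISO (149 CPM, libraries from 139 to 161), ISO (142 ± 12.7 CPM, SD), SR-3420 (115 ± 11.3), Vehicle (35.0 ± 4.90), Lipase Inh. + SR-3420 (22.3 ± 5.96) and Lipase Inh. + Vehicle (14.8 ± 3.08). Neighbours overlapped only at the top, between the ISO groups, and at the bottom, between the inhibited groups without ISO. In the comparison that chose the set, the fitted difference of Lipase Inh. + Vehicle from Vehicle was -1.26 ± 0.15 (log2, SE), 2.39-fold lower, and it is given as a description. Across all genes, 0.913% passed the adjusted p in that comparison.

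Only the comparisons that share no library with the one that chose the set bear on Sema3g separately. Lipase Inh. + SR-3420 stood 4.85-fold below SR-3420, a log2 difference of -2.28 ± 0.14 (adjusted p = 8.48e-11). Without Lipase Inh. + SR-3420 replicate 2, the lowest of its group, the difference was -2.15 (adjusted p = 4.66e-10). Lipase Inh. + ISO differed from ISO by 0.07 ± 0.12, with a 95% interval from -0.19 to 0.32 (adjusted p = 0.698). ISO exceeded SR-3420 by 0.31 ± 0.12, which missed the threshold (adjusted p = 0.0626), although the libraries did not overlap. That call moved with the fit, since the adjusted p was 0.0421 without SR-3420 replicate 2, 0.04 without ISO replicate 3, 0.0241 with no filter on low counts and 0.0176 in a fit of these groups alone. With total counts the difference was 0.16 (adjusted p = 0.402).

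Vehicle is also the control of the comparison that chose the set, so Sema3g values against it are given as descriptions. Sema3g was 4.04-fold higher with ISO than with Vehicle (log2 2.02 ± 0.13) and 3.26-fold higher with SR-3420 (1.71 ± 0.13). Lipase Inh. + Vehicle is the group whose low Sema3g chose the set, so values against it are descriptions with no test. Lipase Inh. + ISO was 10.1-fold above it (3.34 ± 0.14). Lipase Inh. + SR-3420 was 1.61-fold above it (0.68 ± 0.16, and 0.81 without the shallow library), and its libraries overlapped those of Lipase Inh. + Vehicle.

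**Figure D1:**
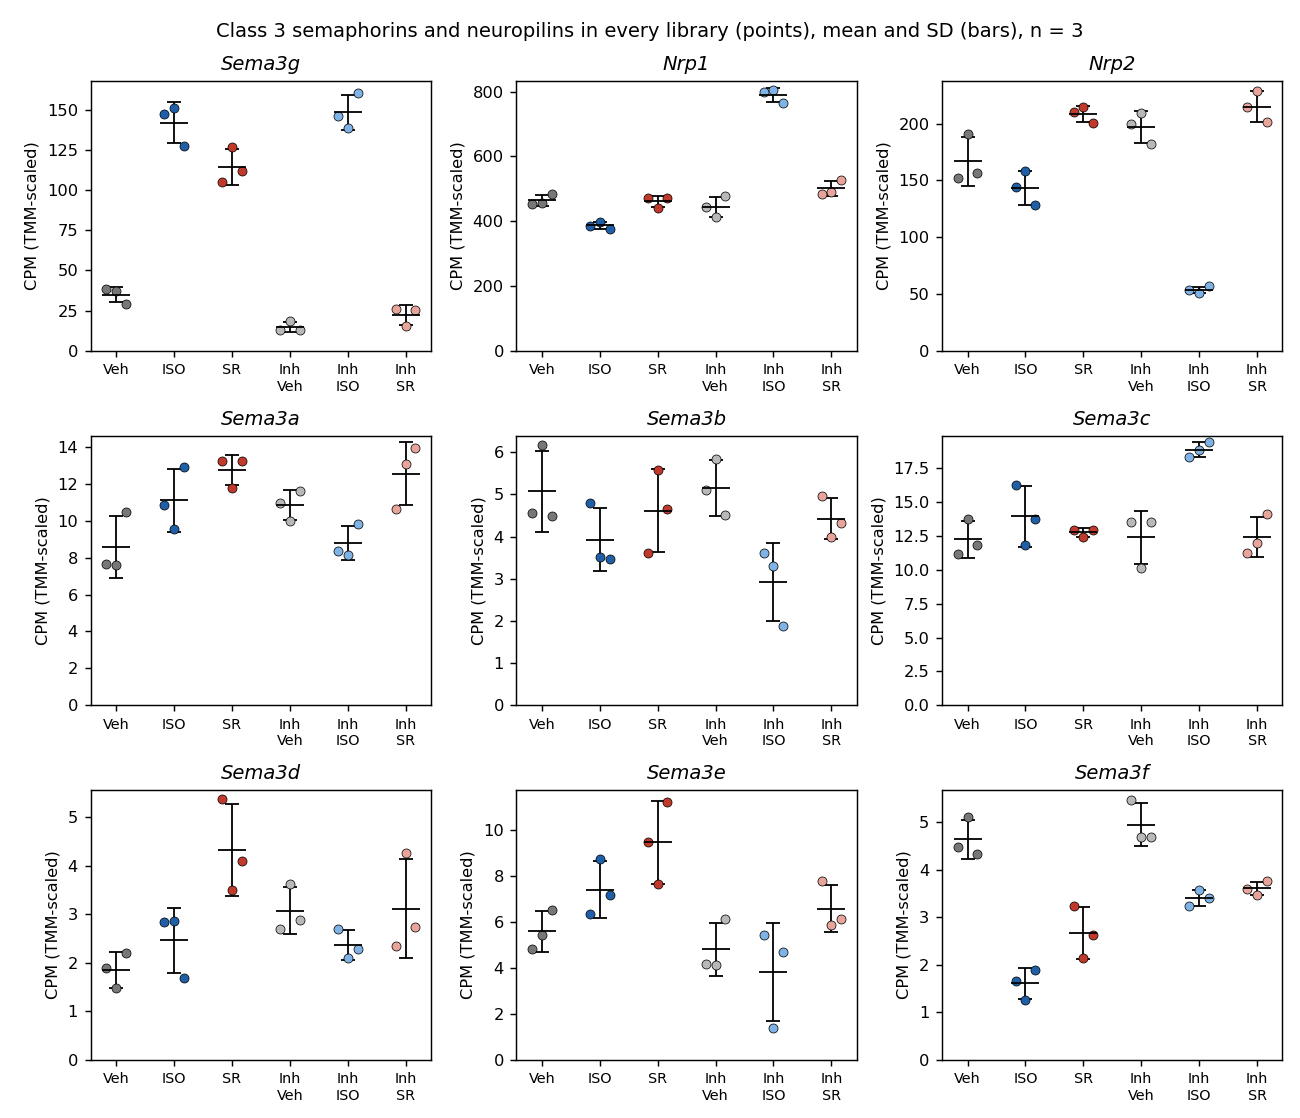
Level of each gene in every library, in CPM on a linear axis from 0 (points), with the mean and SD of each group (bars, n = 3). Veh, ISO and SR mark the treatment and Inh the lipase inhibitors. Sema3g stands at 127 to 161 CPM in all 6 ISO libraries with or without inhibitors, and Nrp1 and Nrp2 leave their usual range in opposite directions in Lipase Inh. + ISO.

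The makeup of the class 3 ligand pool, taken per kilobase, differed between groups along with Sema3g. The summed level of the 7 semaphorins was 15.7 to 18.2 CPM per kb in Vehicle, 42.1 to 48.0 with ISO and 37.2 to 42.5 with SR-3420. With inhibitors it was 11.9 to 12.6 CPM per kb in vehicle-treated cells, 45.2 to 51.5 with ISO and 12.2 to 15.4 with SR-3420. Sema3g made up 55.4 ± 4.63% of that sum in Vehicle, 83.7 ± 1.81% with ISO and 78.3 ± 2.41% with SR-3420. In inhibited cells its share was 32.9 ± 5.66% with vehicle, 83.7 ± 0.785% with ISO and 42.3 ± 6.99% with SR-3420. The share is taken within a library, so it does not depend on the scaling between libraries.

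Nrp1 and Nrp2, the receptors, moved apart in 1 group, Lipase Inh. + ISO. Nrp1, on chromosome 8 (130882973 to 131029375, plus strand), binds semaphorin 3A and VEGF-A. Its level was 453, 457 and 485 CPM in Vehicle, 386, 398 and 377 CPM with ISO and 473, 441 and 471 CPM with SR-3420. In inhibited cells it was 443, 413 and 477 CPM with vehicle, 798, 806 and 764 CPM with ISO and 485, 491 and 529 CPM with SR-3420. The 3 Lipase Inh. + ISO libraries lay far above all others, and ISO alone gave the lowest values.

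ISO lowered Nrp1 slightly in cells without inhibitors, by a log2 difference of -0.26 ± 0.06 (adjusted p = 0.00117, and -0.57 with total counts). In inhibited cells ISO raised Nrp1 1.78-fold (0.83 ± 0.06, adjusted p = 2.21e-10, and 0.60 with total counts). Lipase Inh. + ISO was 2.04-fold above ISO (1.03 ± 0.06, adjusted p = 1.54e-11), and these effects of ISO differed by 1.09 ± 0.09 between cells with and without inhibitors (adjusted p = 3.77e-09). With SR-3420 the differences did not pass the test. They were -0.01 ± 0.06 against Vehicle (95% interval -0.14 to 0.12), 0.18 ± 0.06 in inhibited cells (0.05 to 0.31, adjusted p = 0.133) and 0.12 ± 0.06 between SR-3420 with and without inhibitors (-0.01 to 0.25). Without the shallow library the last 2 were 0.19 (adjusted p = 0.186) and 0.14 (adjusted p = 0.144).

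Nrp2, on chromosome 1 (62749891 to 62865266, plus strand), is the receptor of semaphorin 3F and also binds VEGF-C. It was at 152, 191 and 157 CPM in Vehicle, 144, 158 and 128 CPM with ISO and 210, 214 and 201 CPM with SR-3420. In inhibited cells it was at 200.1, 209.6 and 182 CPM with vehicle, 53.4, 50.5 and 56.7 CPM with ISO and 215, 229 and 201 CPM with SR-3420. Lipase Inh. + ISO was the only group below 100 CPM, and its libraries did not overlap any others.

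In inhibited cells ISO lowered Nrp2 3.67-fold (-1.88 ± 0.09, adjusted p = 2.02e-13), and Lipase Inh. + ISO stood 2.67-fold below ISO (-1.42 ± 0.09, adjusted p = 4.18e-11). The effect of ISO differed by -1.66 ± 0.13 between cells with and without inhibitors (adjusted p = 1.76e-09). Without inhibitors ISO gave a difference of -0.22 ± 0.09 (adjusted p = 0.043), lost in a fit of these groups alone (0.0839) and without Vehicle replicate 2 (-0.11, adjusted p = 0.331), ISO replicate 1 (-0.22, 0.0899) or ISO replicate 3 (-0.14, 0.21). With total counts, where the median gene shifted by -0.306, that difference was -0.53 (adjusted p = 4.07e-05). SR-3420 gave a rise of 0.32 ± 0.09 (adjusted p = 0.0039), which was 0.16 (adjusted p = 0.157) with total counts in place of TMM. The inhibitors left the SR-3420 level within its spread, with a difference of 0.04 ± 0.09 and an interval from -0.14 to 0.22, and -0.00245 without the shallow library (adjusted p = 0.989). ISO was below SR-3420 by -0.54 ± 0.09 for Nrp2 (adjusted p = 8.22e-05) and by -0.25 ± 0.06 for Nrp1 (adjusted p = 0.00384).

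The ratio of the receptors within a library needs no scaling between libraries. Per kilobase, Nrp1 over Nrp2 was 3.43, 2.75 and 3.56 in Vehicle, 3.09, 2.90 and 3.39 with ISO and 2.59, 2.37 and 2.70 with SR-3420. In inhibited cells it was 2.55, 2.27 and 3.02 with vehicle, 17.2, 18.4 and 15.5 with ISO and 2.60, 2.47 and 3.02 with SR-3420. All libraries outside Lipase Inh. + ISO fell between 2.27 and 3.56. Nrp2 accordingly made up 5.57 ± 0.448% of the summed neuropilin level per kilobase in Lipase Inh. + ISO, against 24.3 ± 1.45% with ISO and 27.9 ± 2.86% in Lipase Inh. + Vehicle. The summed level of the 6 Schwann cell and neuron markers, of which 3 were tested and none was listed at 0 in every library, was also lowest in Lipase Inh. + ISO (4.26 to 5.31 CPM against 6.30 to 8.31 CPM with ISO). That of the 7 preadipocyte and fibroblast markers was 154.1 to 195.1 CPM against an overlapping 194.8 to 255.8 CPM. That of the 7 adipocyte markers was 10998 to 11455 CPM, lower than the 13144 to 14233 CPM with ISO and higher than the 8924 to 10094 CPM in Lipase Inh. + Vehicle. In Lipase Inh. + Vehicle the preadipocyte and fibroblast markers summed to 177 to 216 CPM and the Schwann cell and neuron markers to 8.03 to 10.4 CPM. The part of these markers in the neuropilin result was not tested.

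**Figure D2:**
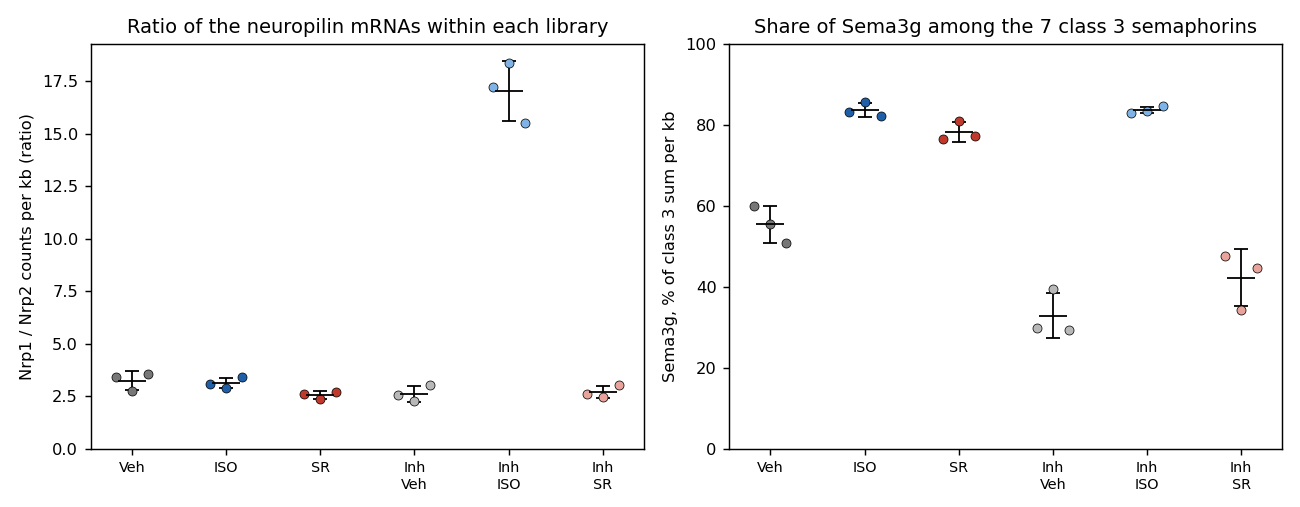
Left, ratio of Nrp1 to Nrp2 counts per kilobase in every library. Right, share of Sema3g in the summed level per kilobase of the 7 class 3 semaphorins, in percent. Points are libraries and bars the mean and SD (n = 3). The ratio is 15.5 to 18.4 in Lipase Inh. + ISO and at most 3.56 in every other library, and the Sema3g share exceeds 75% in SR-3420 and in both ISO groups.

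Among the low ligands, Sema3f changed most clearly and in the opposite sense to Sema3g. Semaphorin 3F, a repellent ligand of neuropilin-2, is encoded on chromosome 9 (107583833 to 107612806, minus strand). Its level was 4.49, 5.10 and 4.32 CPM in Vehicle, 1.67, 1.26 and 1.89 CPM with ISO and 3.23, 2.15 and 2.62 CPM with SR-3420. In inhibited cells it was 5.47, 4.70 and 4.68 CPM with vehicle, 3.24, 3.57 and 3.40 CPM with ISO and 3.60, 3.46 and 3.75 CPM with SR-3420. The ISO libraries were the lowest, at 15 to 24 counts each, and did not overlap any other group.

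Sema3f fell 2.90-fold with ISO (-1.54 ± 0.21, adjusted p = 2.13e-06) and 1.73-fold with SR-3420 (-0.79 ± 0.18, adjusted p = 0.00114). With inhibitors the ISO level was 2.13-fold higher than without (1.09 ± 0.22, adjusted p = 0.000292), and the effect of ISO differed by 1.00 ± 0.28 (adjusted p = 0.00844). The fall with ISO in inhibited cells was -0.54 ± 0.18 (adjusted p = 0.0137) and missed the threshold without Lipase Inh. + Vehicle replicate 1 (-0.46, adjusted p = 0.0649). For SR-3420 the difference between cells with and without inhibitors was 0.45 ± 0.20 (adjusted p = 0.0817). It was 0.59 (0.0427) without SR-3420 replicate 1 and 0.46 (0.0941) without the shallow library. ISO was below SR-3420 (-0.74 ± 0.22, adjusted p = 0.014), a call lost without ISO replicate 2 (-0.60, 0.0824) or SR-3420 replicate 1 (-0.59, 0.076) and in a fit of these groups alone (0.0517).

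Sema3d, Sema3a and Sema3e, which all lie on chromosome 5, were each higher with SR-3420 than with Vehicle. Sema3c lies on chromosome 5 too, and its difference of 0.06 ± 0.14 did not pass (adjusted p = 0.727). Sema3d, a guidance ligand with roles in vessel patterning, was at 1.90, 1.47 and 2.21 CPM in Vehicle and at 5.36, 3.50 and 4.09 CPM with SR-3420. It rose 2.33-fold (1.22 ± 0.25, adjusted p = 0.000345) on 19 to 78 counts a library. Its level with ISO was 2.85, 2.85 and 1.68 CPM, below SR-3420 by -0.78 ± 0.24 (adjusted p = 0.0188), a call lost without ISO replicate 3 (-0.60, 0.0853) or SR-3420 replicate 1 (-0.61, 0.105). In inhibited cells it was at 2.70, 3.63 and 2.89 CPM with vehicle and 2.34, 4.26 and 2.74 CPM with SR-3420, so the effect of SR-3420 differed by -1.31 ± 0.36 (adjusted p = 0.00931), and by -1.47 without the shallow library (adjusted p = 0.00438). The highest of these, 4.26 CPM, is from that library, with 16 counts. SR-3420 with and without inhibitors differed by -0.59 ± 0.25 (adjusted p = 0.0647), and by -0.75 without the shallow library (adjusted p = 0.0255) or -0.71 without SR-3420 replicate 2 (0.0431).

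Sema3a encodes the repellent that collapses growth cones through neuropilin-1. It was at 7.65, 7.57 and 10.5 CPM in Vehicle and at 13.2, 11.8 and 13.2 CPM with SR-3420, a rise of 0.58 ± 0.15 (adjusted p = 0.0023). With ISO it was at 10.8, 9.57 and 12.9 CPM, overlapping Vehicle, and the difference of 0.38 ± 0.15 (adjusted p = 0.0442) was 0.07 (adjusted p = 0.712) with total counts. That ISO call was also lost with no filter on low counts (0.0562), in a fit of these groups alone (0.101), and without Vehicle replicate 1 (0.30, 0.159) or 2 (0.30, 0.152) or ISO replicate 1 (0.39, 0.0737) or 3 (0.26, 0.187). In inhibited cells its range was 9.97 to 11.6 CPM with vehicle and 8.15 to 9.83 CPM with ISO, and the effect of ISO differed by -0.67 ± 0.21 (adjusted p = 0.02). That difference had an adjusted p of 0.0577 without Vehicle replicate 1, 0.0522 without Vehicle replicate 2, 0.0592 without ISO replicate 3 and 0.0515 without Lipase Inh. + Vehicle replicate 3.

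Sema3e, which can signal through plexin D1 without a neuropilin, was at 4.80, 5.41 and 6.53 CPM in Vehicle and 9.48, 7.64 and 11.2 CPM with SR-3420. The rise of 0.78 ± 0.26 (adjusted p = 0.0159) missed the threshold without Vehicle replicate 1 (0.68, 0.0724) or SR-3420 replicate 3 (0.63, 0.0867). With ISO it was at 6.31, 8.73 and 7.14 CPM, and with inhibitors and ISO at 5.40, 1.37 and 4.66 CPM. This group was lower (-0.91 ± 0.28, adjusted p = 0.0127), but replicate 2 alone stood at 15 counts, and without it the difference was -0.57 (adjusted p = 0.0509). Without ISO replicate 2 it was -0.77 (0.0577).

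Sema3c, a ligand of both neuropilins, was highest in Lipase Inh. + ISO, at 18.4, 18.9 and 19.5 CPM, above all other libraries. ISO alone gave 16.3, 11.8 and 13.8 CPM and Lipase Inh. + Vehicle 13.6, 10.1 and 13.5 CPM. Lipase Inh. + ISO exceeded Lipase Inh. + Vehicle by 0.60 ± 0.13 (adjusted p = 0.000478) and ISO by 0.43 ± 0.13 (adjusted p = 0.0113, and 0.32 with 0.0723 without ISO replicate 2). Sema3b, a ligand known as a tumour suppressor, was lowest in the same group, at 3.60, 3.30 and 1.88 CPM against 5.10, 5.85 and 4.51 CPM in Lipase Inh. + Vehicle. The difference was -0.87 ± 0.24 (adjusted p = 0.00354), and -0.56 (0.0509) without Lipase Inh. + ISO replicate 3. No other difference of Sema3b passed the test with TMM, but ISO against Vehicle (-0.35 ± 0.23, adjusted p = 0.21) passed with total counts (-0.66, adjusted p = 0.0186). Neither Sema3b nor Sema3c passed the test in any comparison with SR-3420.

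**Figure D3:**
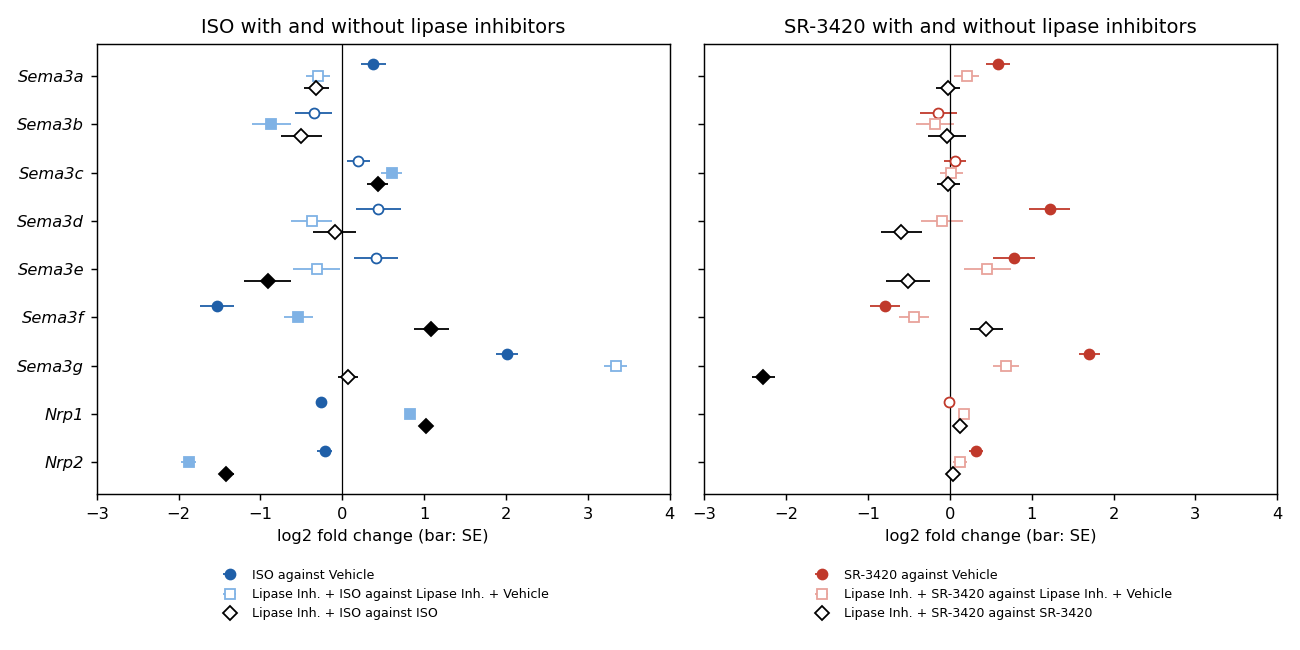
Fitted log2 fold change of each gene with its SE (bars), for ISO (left) and SR-3420 (right). Circles compare the stimulus with Vehicle, squares compare it with Lipase Inh. + Vehicle in inhibited cells, and diamonds compare the stimulus with and without inhibitors. Filled symbols passed an adjusted p of at most 0.05, and the Sema3g squares are drawn unfilled because their control chose the set. The Sema3g circles use the Vehicle libraries of the comparison that chose the set, so they are descriptions although filled. For Sema3g the diamond is near 0 for ISO (0.07) and at -2.28 for SR-3420, and for Nrp2 it is at -1.42 for ISO and 0.04 for SR-3420.

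Counted over the members, the stimuli did not move the set in 1 direction. Sema3g is left out of the counts against Vehicle, a group of the comparison that chose the set. ISO raised 1 and lowered 3 of the other 8 members there. Of all genes tested 51.8% passed, 26.8% higher and 25% lower. With total counts the split was 0 higher and 4 lower, in a fit where the median gene shifted by -0.306 (log2). All shares of genes given here and for the partner genes below are with TMM, and none is given with total counts. The median of the 8 was -0.01 (log2) and that of all genes -0.02. SR-3420 raised 4 and lowered 1 of the 8, against 51.4% of all genes, 26% higher and 25.4% lower, with a median of 0.19 against -0.02. In inhibited cells, where Sema3g is left out because its control chose the set, ISO raised 2 and lowered 3 of the other 8 members, and 57.7% of all genes passed, 29.4% higher and 28.3% lower. The median of the 8 was -0.34 against -0.01. The split was 2 and 5 with total counts, where the median gene shifted by -0.225. SR-3420 gave 0 calls among the 8 there by edgeR's and by DESeq2's test, where 4.34% of all genes passed, 2.99% higher and 1.36% lower. Of these 8, only Sema3f and Nrp1 had libraries that did not overlap those of Lipase Inh. + Vehicle. Their differences were -0.44 and 0.18, or -0.42 and 0.19 without the shallow library. With so many genes passing in most comparisons, a member's call alone does not set it apart from other genes.

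Between ISO with and without inhibitors, 3 members were higher and 2 lower, where 42.6% of all genes passed, 21% higher and 21.6% lower. For SR-3420 only Sema3g was lower, where 39.8% of genes passed the adjusted p, 18.9% higher and 20.9% lower. Without the shallow library Sema3d was lower too (-0.75, adjusted p = 0.0255). At an unadjusted p under 0.05 there were 3 members, for which no share of all genes is given. ISO was lower than SR-3420 for 4 members, where 29.7% passed, 15.8% higher and 13.9% lower. Sema3g is also left out of the counts of changed effects, which contain the comparison that chose the set. The inhibitors changed the effect of ISO for 4 of the other 8 members, 2 upward and 2 downward, where 31.4% of all genes passed, 14.9% upward and 16.6% downward. They changed that of SR-3420 for 1, Sema3d, downward, where 27.3% passed, 12.5% upward and 14.8% downward. At 2-fold or more the ISO effect changed for 2 of the 8, Nrp1 and Nrp2, where 6.89% of all genes did so. Sema3f, at 0.997 (log2), fell just short for ISO and was past 2-fold with total counts (1.08, adjusted p = 0.00857). The SR-3420 effect changed by as much for 1, Sema3d, where 3.82% of all genes did so. The comparisons with Vehicle share those 3 libraries, and those with Lipase Inh. + Vehicle share the other control.

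The plexins, the signalling partners of the neuropilins, were led by falls of Plxna1 and Plxnd1. Of 9 plexin genes 6 were tested, and Plxna4, Plxnb1 and Plxnc1 were at most 0.533 CPM in any library. ISO lowered 3 and raised 1 (4 and 1 with total counts), where 51.8% of all genes passed, and SR-3420 lowered 3 and raised 2 (3 and 1), where 51.4% passed. Plxna1, a partner of both neuropilins, went from 302 ± 17.9 CPM in Vehicle to 166 ± 10.4 with ISO (-0.86 ± 0.08, adjusted p = 7.06e-09) and from 345 ± 16.6 to 144 ± 6.66 CPM in inhibited cells (-1.26 ± 0.08, adjusted p = 1.11e-11). Plxnd1, the receptor of semaphorin 3E, fell from 165 ± 11.7 to 79.9 ± 3.91 CPM with ISO (-1.05 ± 0.09, adjusted p = 3.15e-09). Between ISO with and without inhibitors 3 plexins were lower and 0 higher (1 lower with total counts), where 42.6% of all genes passed. Between SR-3420 with and without them 3 were higher and 2 lower, with or without the shallow library (3 and 1 with total counts), where 39.8% passed. Plxnb3 was 1 of those lower with ISO (-1.80 ± 0.53, adjusted p = 0.00937), on at most 16 counts in any of these libraries.

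Of 13 other semaphorins 9 were tested, most of them membrane-bound proteins. ISO raised 3 and lowered 3 (1 and 6 with total counts), where 51.8% of all genes passed with TMM. SR-3420 raised 2 and lowered 3, where 51.4% passed. Sema4b, a transmembrane semaphorin, rose from a median of 50.6 CPM in Vehicle to 126 with ISO (1.18 ± 0.09, adjusted p = 5.38e-10) and 121 with SR-3420 (1.22 ± 0.09, adjusted p = 4.66e-10). With inhibitors it was at 137 ± 3.86 CPM with ISO and 70.1 ± 6.58 CPM with SR-3420, and the effect of SR-3420 differed by -0.81 ± 0.13 (adjusted p = 8.57e-05), and by -0.87 without the shallow library (7.83e-05). Sema4c fell with ISO (-1.37 ± 0.17, adjusted p = 5.62e-07) and SR-3420 (-1.05 ± 0.16, adjusted p = 1.07e-05). Sema5a, like Nrp2, was lowest in Lipase Inh. + ISO, at 15.9 ± 1.64 CPM against 46.7 ± 4.10 in Lipase Inh. + Vehicle (-1.56 ± 0.15, adjusted p = 9.58e-09). Sema7a, a membrane-anchored semaphorin, was lower with inhibitors and SR-3420 than with SR-3420 (-1.06 ± 0.11, adjusted p = 1.99e-07, and -1.01 with 1.93e-06 without the shallow library).

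Of the VEGF genes, the ligands Vegfa, Vegfb, Figf (VEGF-D) and Pgf were tested, while the receptors Flt1, Kdr and Flt4 were at most 0.533 CPM in any library. ISO raised Vegfa and Pgf and lowered Vegfb and Figf (1 higher and 2 lower with total counts), where 51.8% of all genes passed. Vegfa, named after its values were seen because it was the most abundant of the tested VEGF genes per kilobase, rose from 1095 ± 88.4 CPM to 1575 ± 174 with ISO (0.52 ± 0.08, adjusted p = 1.26e-05). Lipase Inh. + ISO, where Nrp1 was highest, held 1188 ± 61.4 CPM of Vegfa, below ISO by -0.41 ± 0.08 (adjusted p = 0.000319). Figf was lowest there, at 5.40 ± 0.331 CPM against 15.6 ± 1.24 in Lipase Inh. + Vehicle (-1.52 ± 0.16, adjusted p = 3.6e-08).

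Furin, the protease that cleaves and thereby tunes class 3 semaphorins, was highest in Lipase Inh. + ISO, as Nrp1 was. It was at 173 ± 12.0 CPM in Vehicle, 110.4 ± 5.69 with ISO and 102 ± 9.46 with SR-3420, and in inhibited cells at 201 ± 11.7 with vehicle, 309 ± 19.5 with ISO and 156 ± 23.1 with SR-3420. ISO lowered it without inhibitors (-0.65 ± 0.09, adjusted p = 4.41e-06), and Lipase Inh. + ISO stood 1.48 ± 0.09 above ISO (adjusted p = 2.57e-11). The effect of ISO differed by 1.27 ± 0.13 (adjusted p = 1.28e-07). Of the 8 co-receptors, adaptor and proteases 5 were tested, of which ISO raised 1 and lowered 3 (0 and 3 with total counts), where 51.8% of all genes passed. With inhibitors and ISO 3 were higher and 1 lower than with ISO, where 42.6% passed. The 1 lower, the co-receptor L1cam, rested on 2 to 17 counts a library.

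Inside the target cell, plexin signals reach actin and microtubules through a set of kinases, GTPases and oxidases, of which 15 of 18 listed genes were tested. Against Vehicle, ISO raised 3 and lowered 3 (2 and 8 with total counts), where 51.8% of all genes passed with TMM. SR-3420 raised 6 and lowered 3 (4 and 5 with total counts), where 51.4% passed with TMM. Limk1, the kinase that phosphorylates cofilin, rose from 45.4 ± 5.31 to 258 ± 67.6 CPM with ISO (2.50 ± 0.15, adjusted p = 9.16e-12) and from 37.7 ± 2.10 to 287 ± 33.0 CPM in inhibited cells (2.93 ± 0.15, adjusted p = 4.89e-13). With SR-3420 it was at 87.1 ± 11.7 CPM, and with inhibitors and SR-3420 at 35.5 ± 4.86 CPM (-1.30 ± 0.16, adjusted p = 1e-06, and -1.32 with 7.29e-06 without the shallow library). Limk1 thus had the highest levels in the same groups as Sema3g. Dpysl2, the mediator of semaphorin 3A signalling also called CRMP2, fell with ISO (-1.34 ± 0.18, adjusted p = 1.74e-06) and SR-3420 (-1.04 ± 0.17, adjusted p = 2.83e-05). Mical3, an oxidase of the MICAL family, fell with ISO in inhibited cells (-1.23 ± 0.08, adjusted p = 3.85e-11). Rnd1, a GTPase that binds plexins, rose with SR-3420 (1.47 ± 0.28, adjusted p = 0.000183), with a spread of 10.7 to 26.0 CPM over those libraries.

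**Figure D4:**
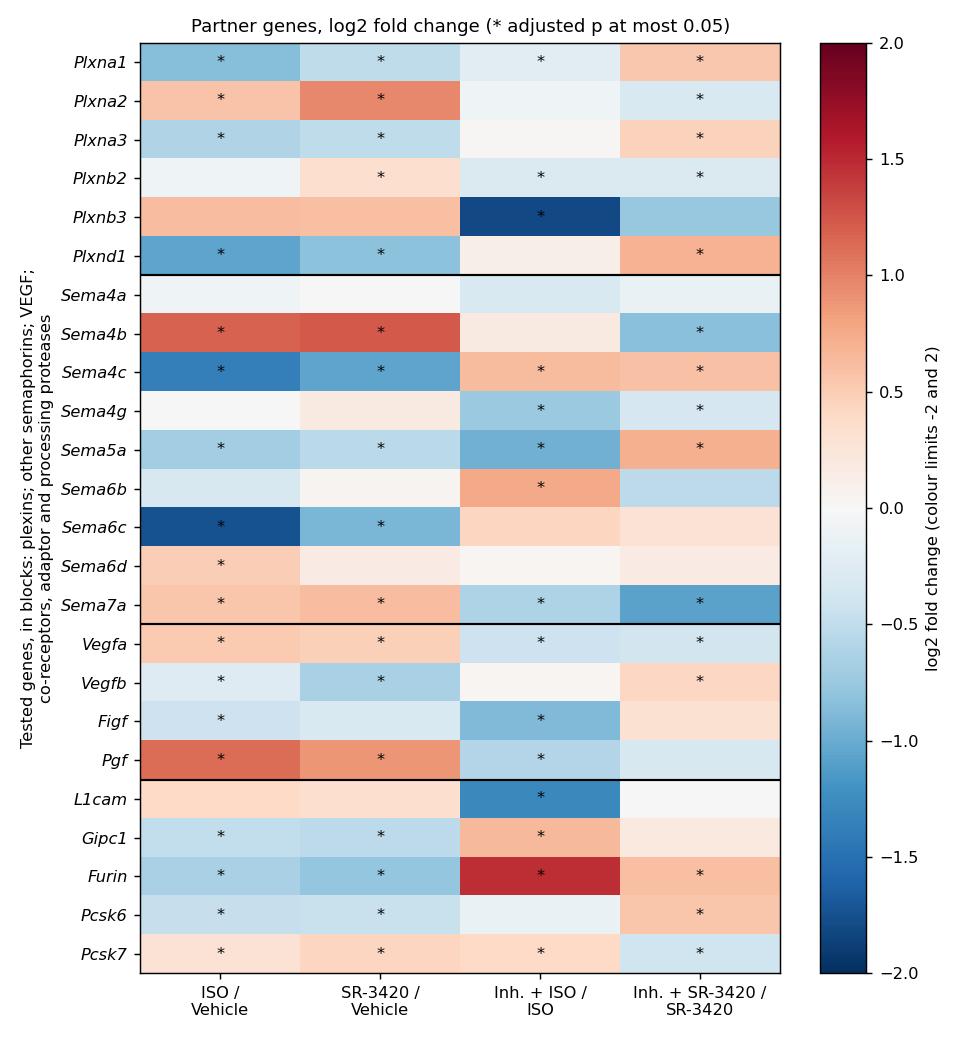
Fitted log2 fold changes of the tested plexins, other semaphorins, VEGF ligands, co-receptors and proteases (rows, in blocks) in 4 comparisons (columns), with red for higher and blue for lower and an asterisk for an adjusted p of at most 0.05. Furin stands out with inhibitors and ISO against ISO (1.48), and Plxna1 and Plxnd1 are lower with both stimuli.

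The genes most like Sema3g over the 18 libraries, by Pearson correlation of log2 CPM among 9410 genes, were P4ha1 (0.984), P4ha2 (0.981), Eif1ad (0.979), Ddit4 (0.974) and Prpf6 (0.972). These are descriptions over libraries that share their groups, and with total counts 3 of the 5 were named again. P4ha1, a catalytic subunit of the prolyl hydroxylase of collagen, averaged 160.5 CPM in Vehicle, 263 with ISO, 233 with SR-3420, 102 in Lipase Inh. + Vehicle, 276 in Lipase Inh. + ISO and 128 in Lipase Inh. + SR-3420. Ddit4, an inhibitor of mTORC1, averaged 102, 507, 248, 56.4, 443 and 84.9 CPM in the same order. Both were lowest in Lipase Inh. + Vehicle and high in both ISO groups, as Sema3g was. The correlation that named them used these same libraries, so this is no separate likeness.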

How the data were processed

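RNA-seq was measured in 18 samples, 3 in each of 6 groups taken from the sample titles. The authors made TruSeq libraries, aligned reads to mm9 with STAR 2.4.2a, built tag directories with HOMER keeping 1 read per position, and counted reads per gene. The deposited table holds whole-number counts for 20295 genes, which are neither normalised nor filtered, and use of strand is not stated. The study speaks of independent experiments. Testing used edgeR 4.0.16 under R 4.3.3. filterByExpr (minimum count 10, minimum total 15) kept 12156 genes, libraries were scaled by TMM, and 1 quasi-likelihood model with a mean per group was fitted to all 18 samples. With total counts alone the median gene shifted by -0.306 (log2) for ISO against Vehicle, so the changes given, with TMM, are relative to the typical gene. The shift was -0.16 for SR-3420 against Vehicle, -0.225 and -0.0958 for ISO and SR-3420 in inhibited cells and -0.147 for ISO against SR-3420. P-values were adjusted by Benjamini-Hochberg, with a threshold of 0.05 and, for 2-fold counts, an absolute log2 fold change of 1. The effect of a stimulus with inhibitors minus that without was tested as an interaction, which contains the comparison that chose the set, so for Sema3g it is no independent test. Alternatives were DESeq2 1.42.0, other scalings, no filter, fits of only the groups compared, a block and leaving out each library. Intervals are 95% intervals of the fitted differences. The script was tested on simulated data.

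Named genes are the 9 members, list genes past both thresholds (up to 4 per list and comparison, of which those described are a part), and the 5 genes most correlated with Sema3g among those with a mean log2 CPM of at least 3. Members and lists were chosen with earlier results of these data known. Positions, strands and lengths are those of the count table, and promoter sequence is from the mm9 genome.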

Additional observations from a re-analysis of the deposited data

Results flagged for a closer look

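The effect of a stimulus differed between cells with and without inhibitors for these members, by the interaction test (effect with inhibitors minus effect without, log2). For ISO the difference was -1.66 for Nrp2, 1.09 for Nrp1, 1.32 for Sema3g, 1.00 for Sema3f and -0.67 for Sema3a. For SR-3420 it was -1.31 for Sema3d and -1.02 for Sema3g, or -1.47 and -0.90 without Lipase Inh. + SR-3420 replicate 2. The Sema3g differences contain the low level in Lipase Inh. + Vehicle by which the set was chosen, so they are descriptions and no p is given. The Sema3a difference missed the threshold without each of 4 single libraries, and the Sema3d difference rests on 16 to 78 counts a library. Groups of 3 libraries were not examined for single outlying values.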

How the results depend on the processing

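Of 81 differences (9 members in 9 tested comparisons), no difference past the threshold changed sign under any alternative, while differences short of it did, such as Sema3c for ISO against Vehicle (0.20, and -0.11 with total counts). DESeq2 and RLE factors kept the side of the threshold in 81. Calls were lost in 1 and gained in 1 without the filter, lost in 4 and gained in 2 with only the groups compared, and lost in 3 and gained in 3 with total counts alone. Leaving out 1 library lost 26 calls and gained 7 over 594 refitted differences, a total that includes differences short of the threshold in the main fit. Counting Sema3g too, fits leaving out a library gave 3 to 5 members past the adjusted p for ISO against Vehicle, 0 to 1 for SR-3420 in inhibited cells, 3 to 5 and 1 to 2 for ISO and SR-3420 with against without inhibitors, 2 to 5 for ISO against SR-3420, and 1 to 2 members at 2-fold for the SR-3420 interaction. With only the groups compared, these counts were 3 for ISO against Vehicle (5 in all groups), 0 for SR-3420 in inhibited cells (edgeR, 3 at an unadjusted p under 0.05, against 1 by DESeq2 fitted to all groups) and 2 for SR-3420 with against without inhibitors. With total counts, they were 0 for SR-3420 in inhibited cells (2 unadjusted), 1 at 2-fold for the SR-3420 interaction (2 with TMM), and 3 of 5 genes shared in the likeness to Sema3g. Where Sema3g is counted against Vehicle, against Lipase Inh. + Vehicle or in an interaction, these counts describe the fits and are no separate test of it. Without Sema3g, SR-3420 in inhibited cells gave 0 calls in the fit of all groups, with only the groups compared and with total counts. The causes were not tested. The partner lists without Lipase Inh. + SR-3420 replicate 2 and the values for inhibitors alone were also computed under alternatives chosen after seeing the data, and Sema3g ranged from -1.44 to -1.16 for inhibitors alone.

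Replicate numbers 1 to 3 recur in every group, but the labels do not say that they pair samples. Over 45 pairs of same-numbered samples the mean correlation of deviations was 0.11 and 28 exceeded 0.1, and 12 of 18 samples correlated best with their own number, so the pairing held for some pairs only and the block was not used. With the replicate block, 0 calls were lost and 3 gained, among them Sema3g for ISO against SR-3420 (adjusted p = 0.0267), and 1 member passed at 2-fold for the SR-3420 interaction. Depth limits Sema3b, Sema3d, Sema3e and Sema3f, which have as few as 13 to 16 counts in a library.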
